A study of Mus musculus with 6 samples.

Results

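The 37 genes described here encode glycoproteins, proteoglycans and elastic fibre proteins of the extracellular matrix, none of them a collagen, and their RNA levels were compared between colitis mice receiving berberine (BBR) and colitis mice receiving sulfasalazine (SASP). They were taken by gene symbol and not by their values, and all 37 were found among the 18268 genes of the table. RNA was sequenced from the colorectum of male C57BL/6 mice aged 8 to 10 weeks with no engineered allele. Colitis was induced in all 6 mice with 2.5% dextran sulfate sodium (DSS), a sulfated polysaccharide that injures the colonic epithelium, in the drinking water for 7 days. For 6 days 3 of the mice received BBR, a plant alkaloid, by gavage at 100 mg/kg, and the other 3 received SASP, an aminosalicylate drug used in ulcerative colitis, at 200 mg/kg. Healthy mice and colitis mice without a drug were not analysed here, so each value below is a difference between 2 treated groups and not a change from the colitis state. The labels do not say whether each library came from 1 mouse or from a pool, and each library is called a mouse below.

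Matrix glycoproteins and proteoglycans fill the space between collagen fibrils, bind growth factors and carry signals to cells through integrins. Elastic fibres are built from a core of elastin laid on a scaffold of fibrillin microfibrils, with fibulins guiding assembly and lysyl oxidases joining elastin molecules by covalent crosslinks. In the gut wall these proteins are made mainly by fibroblasts, smooth muscle cells and endothelial cells of the lamina propria, submucosa and muscle layer, and matricellular proteins such as tenascin C and thrombospondin are known to be induced in wounded and inflamed mucosa.

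The libraries were estimated to hold 16400000 to 18200000 reads, and 11518 to 12307 genes per mouse reached 1 FPKM (fragments per kilobase, a level corrected for transcript length and library size). The markers of the labelled tissue were present. The summed FPKM of 10 colon epithelial markers was 6001 to 8105 in BBR mice and 5861 to 5980 in SASP mice. BBR mouse 3 stood apart from the other mice of its group. Across genes, its log2(FPKM + 1) values correlated with those of BBR mice 1 and 2 at Pearson's r = 0.953 and 0.949, against 0.987 between BBR mice 1 and 2 and 0.982 to 0.989 within the SASP group (genes are not independent replicates). With SASP mice 1 to 3 it correlated at 0.920, 0.953 and 0.944, so it lay as near to SASP mouse 2 as to its own group. The summed FPKM of 14 smooth muscle markers was 3627 to 8369 in BBR mice and 1033 to 3040 in SASP mice. These values are taken up again beside the results they touch.

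All 33 matrix genes that could be tested had a higher mean in colitis mice receiving BBR than in colitis mice receiving SASP, with Vcan just below 0 after quantile normalization, and 3 of them passed the threshold: Lum (lumican), Eln (elastin) and Loxl1 (lysyl oxidase-like 1). Genes were tested with limma on log2(FPKM + 1) if they reached 1 FPKM in at least 3 of the 6 mice, and a gene was called at a Benjamini-Hochberg adjusted p under 0.05 over all 12072 genes tested. The 3 calls were 9.09% of the matrix genes tested, against 8.86% of all genes called in either direction, 3.82% called higher in BBR mice and 5.04% called lower. The share of called matrix genes was therefore near the background. All 3 BBR mice lay above all 3 SASP mice for 22 of the 33 genes (66.7%), a pattern seen in 21.3% of all genes tested. The median log2 fold change of the 33 genes was 0.82, with a range from 0.15 for Vcan to 1.32 for Lum, while the median of all genes tested was 0.10. A log2 fold change of at least 0.5 was found for 29 of the 33, against 14.9% of all genes, and an unadjusted p of at most 0.05 with a higher BBR mean for 23, against 18.4%. A mean difference above 0 was itself common, with 60.8% of all genes on that side.

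**Figure D1:**
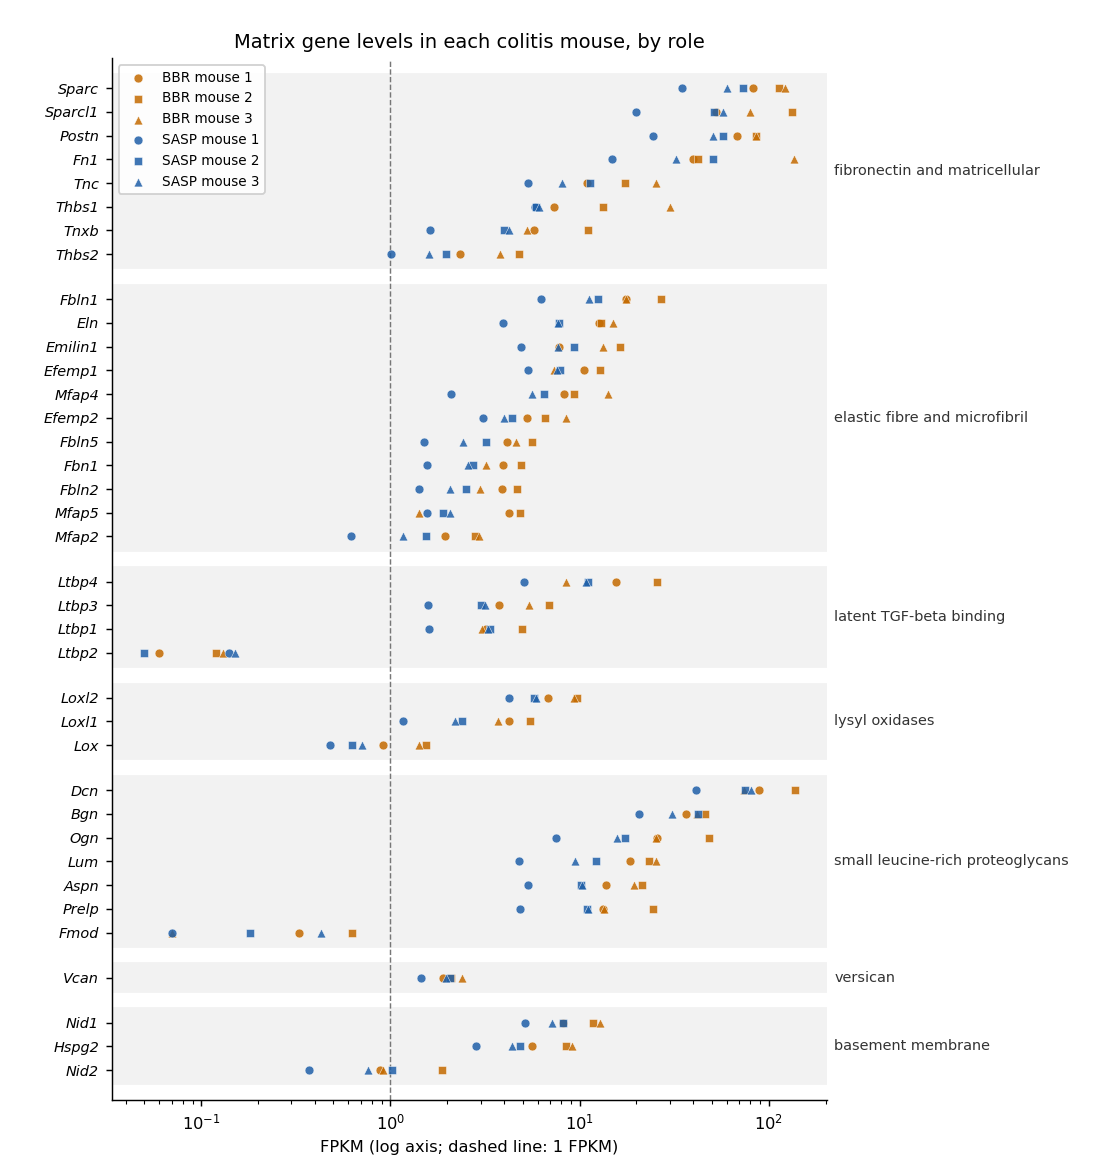
FPKM of each of the 37 matrix genes on a log axis, grouped by role, with 1 point for each mouse (orange, BBR; blue, SASP; the shapes only number the mice within a group). The orange points lie to the right of the blue points for most genes above 1 FPKM, and the blue circle of SASP mouse 1 is the leftmost point in 32 of the 33 genes tested.

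The calls depended on single mice, whereas the direction did not. In limma fits that left out 1 mouse at a time, all 33 genes kept the higher BBR mean each time. No matrix gene was called without BBR mouse 1, BBR mouse 2, SASP mouse 1 or SASP mouse 3, although 25, 15, 17 and 23 matrix genes had an unadjusted p under 0.05 in those fits. The share of all genes at that unadjusted level was not computed for those fits, so these counts have no background beside them. Without SASP mouse 2 Lum alone was called, and without BBR mouse 3 the count was 10. Over all genes the count moved in the same way, from 1069 to 51 without SASP mouse 3 and to 4018 without BBR mouse 3. With 3 mice a group, 0.1 is the smallest two-sided p that an exact permutation test allows for 1 gene, and single genes were therefore judged by limma and by whether the groups overlapped. Nothing in the labels says that the mice were housed or treated separately, and the p-values measure only the spread between these samples. In whole tissue, more cells of a type and more RNA per cell cannot be told apart.

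**Figure D2:**
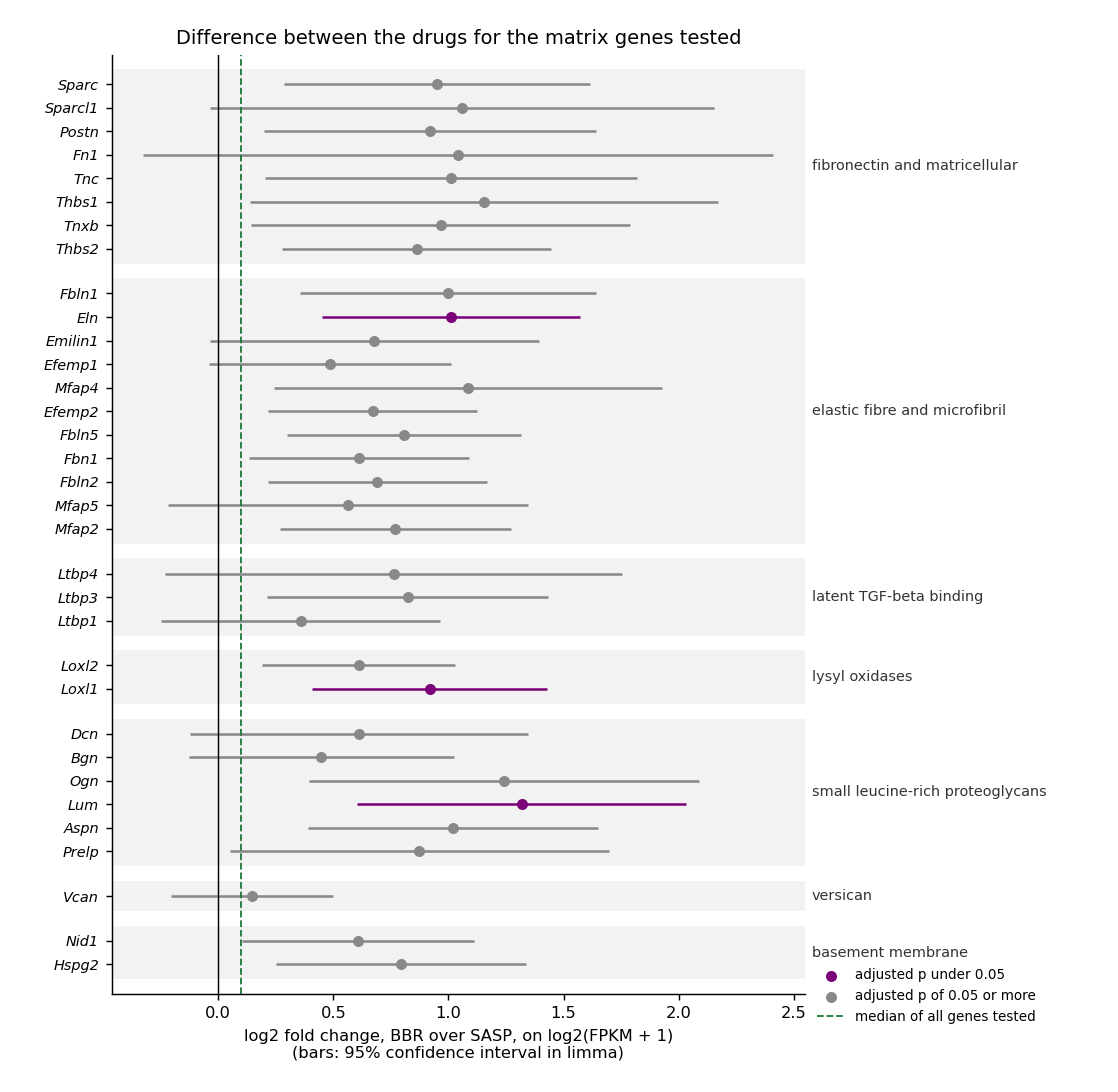
Log2 fold change of the 33 tested matrix genes, BBR over SASP, on the log2(FPKM + 1) scale, by role, with 95% confidence intervals from limma. All 33 points lie above 0, the 3 called genes (Eln, Loxl1 and Lum) are drawn in purple, and the dashed line marks the median of all genes, 0.10.

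Elastin and the proteins that assemble it made the largest group, with 11 genes tested, 11 higher in BBR mice, 8 with groups apart and 1 called. Eln (NCBI Gene 13717), the elastic core protein, measured 12.69, 13.04 and 15.05 FPKM in BBR mice 1 to 3 and 3.92, 7.78 and 7.70 FPKM in SASP mice 1 to 3. Every BBR value exceeded every SASP value, and SASP mouse 1 was the lowest. Eln was 2.10-fold higher in BBR mice by mean FPKM (13.6 ± 1.27 against 6.47 ± 2.21, SD, n = 3 each), with a log2 fold change of 1.01 ± 0.24 (SE; adjusted p = 0.0466 in limma).

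The fibulins, calcium-binding glycoproteins that tether elastin to microfibrils and cells, lay in the same order without passing the threshold. Fbln5 (NCBI Gene 23876), required for elastic fibre assembly in mice, measured 4.12, 5.64 and 4.64 FPKM in BBR mice and 1.51, 3.19 and 2.41 FPKM in SASP mice. The groups were apart, and the log2 fold change was 0.81 ± 0.21 (SE; adjusted p = 0.0613 in limma). Fbln1 (NCBI Gene 14114), which binds fibronectin and elastin, was the most abundant of the elastic fibre genes by mean FPKM in BBR mice. It measured 17.54, 26.88 and 17.54 FPKM in BBR mice and 6.29, 12.50 and 11.24 FPKM in SASP mice, with a log2 fold change of 1.00 ± 0.27 (SE; adjusted p = 0.0637 in limma). Its groups were apart, with BBR mouse 2 well above the rest. Fbln2 (NCBI Gene 14115) measured 3.90, 4.66 and 2.96 FPKM in BBR mice and 1.42, 2.52 and 2.06 FPKM in SASP mice. BBR mouse 3 came close to SASP mouse 2 without meeting it, and the log2 fold change was 0.69 ± 0.20 (SE; adjusted p = 0.0719 in limma). Efemp2 (fibulin 4, NCBI Gene 58859), which brings lysyl oxidase to elastin, measured 5.26, 6.57 and 8.45 FPKM in BBR mice and 3.10, 4.42 and 3.99 FPKM in SASP mice. These groups were also apart, with a log2 fold change of 0.67 ± 0.19 (SE; adjusted p = 0.0699 in limma). Its relative Efemp1 (fibulin 3) overlapped between the groups, because BBR mouse 3 at 7.33 FPKM was below SASP mice 2 and 3 at 7.87 and 7.58 FPKM.

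Microfibril components also had higher means in BBR mice, and none of them was called. Mfap2 (NCBI Gene 17150), a small glycoprotein that binds fibrillin, measured 1.94, 2.79 and 2.95 FPKM in BBR mice and 0.62, 1.54 and 1.16 FPKM in SASP mice. The groups were apart at a low level, and the log2 fold change was 0.77 ± 0.21 (SE; adjusted p = 0.0647 in limma). Fbn1, the fibrillin that forms the microfibril itself, spanned 3.20 to 4.90 FPKM in BBR mice and 1.57 to 2.73 FPKM in SASP mice. Mfap4, an elastin- and fibrillin-binding glycoprotein, spanned 8.31 to 14.06 FPKM against 2.08 to 6.46 FPKM, also without overlap, and its log2 fold change of 1.09 was the largest among the elastic fibre genes (adjusted p = 0.0931 in limma). Mfap5 and Emilin1, an elastic fibre glycoprotein that binds integrins, overlapped between the groups. For Mfap5 BBR mouse 3 had the lowest value of all 6 mice, 1.41 FPKM, whereas BBR mice 1 and 2 had 4.22 and 4.85 FPKM.

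The lysyl oxidases are copper enzymes that crosslink elastin and collagen. Loxl1 (NCBI Gene 16949), which acts chiefly on elastic fibres, measured 4.23, 5.45 and 3.71 FPKM in BBR mice and 1.17, 2.39 and 2.20 FPKM in SASP mice. The lowest BBR mouse was still above the highest SASP mouse. Loxl1 was 2.32-fold higher in BBR mice by mean FPKM (4.46 ± 0.893 against 1.92 ± 0.656, SD, n = 3 each), with a log2 fold change of 0.92 ± 0.22 (SE; adjusted p = 0.0469 in limma). Loxl2, which acts on collagen IV among other substrates, spanned 6.81 to 9.68 FPKM in BBR mice and 4.26 to 5.88 FPKM in SASP mice (a log2 difference of 0.61, adjusted p = 0.0727 in limma). Lox itself did not pass the level filter, with 0.91, 1.55 and 1.42 FPKM in BBR mice and 0.48, 0.63 and 0.71 FPKM in SASP mice. It was not tested, although its groups did not overlap.

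The latent TGF-beta binding proteins hold TGF-beta in an inactive store on microfibrils. Ltbp3 was apart between the groups, at 3.74 to 6.86 FPKM in BBR mice and 1.58 to 3.17 FPKM in SASP mice (a log2 difference of 0.82, adjusted p = 0.0843 in limma). Ltbp4, the most abundant of the 4, overlapped, since BBR mouse 3 had 8.53 FPKM and BBR mouse 2 had 25.83 FPKM. Its log2 fold change was 0.76 with a 95% confidence interval from -0.23 to 1.76. Ltbp1 also overlapped, with a log2 fold change of 0.36 and an interval from -0.25 to 0.96. For Ltbp1 neither a difference nor its absence was shown. Ltbp2 was nearly undetected at 0.05 to 0.15 FPKM, which corresponds to about 6.15 to 17.0 reads per mouse, and no difference was detectable at this depth.

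Among the small leucine-rich proteoglycans, whose arched core proteins bind collagen fibrils and regulate their thickness, 6 of 7 genes were tested, 4 had groups apart and 1 was called. Lum (NCBI Gene 17022), a keratan sulfate proteoglycan that limits fibril growth, measured 18.51, 23.23 and 25.39 FPKM in BBR mice and 4.78, 12.29 and 9.48 FPKM in SASP mice. The groups were clearly apart, and SASP mouse 1 was again lowest. Lum was 2.53-fold higher in BBR mice by mean FPKM (22.4 ± 3.52 against 8.85 ± 3.79, SD, n = 3 each), with a log2 fold change of 1.32 ± 0.30 (SE; adjusted p = 0.0444 in limma), the largest of the matrix genes tested. Aspn (asporin, NCBI Gene 66695), which binds collagen and TGF-beta, measured 13.81, 21.36 and 19.30 FPKM in BBR mice and 5.35, 10.17 and 10.36 FPKM in SASP mice. It narrowly missed the threshold with a log2 fold change of 1.02 ± 0.27 (SE; adjusted p = 0.0592 in limma). Ogn (osteoglycin, NCBI Gene 18295) measured 25.70, 48.34 and 25.28 FPKM in BBR mice and 7.52, 17.34 and 15.77 FPKM in SASP mice. BBR mouse 2 was far above the other mice, and with this spread the log2 fold change of 1.24 (SE 0.36) had a limma adjusted p of 0.0713.

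The more abundant members of this family had smaller fold changes. Dcn (decorin), the founding member, measured 73.97 to 137.49 FPKM in BBR mice and 41.43 to 80.21 FPKM in SASP mice, and its log2 fold change of 0.61 had a 95% confidence interval from -0.12 to 1.35. Bgn (biglycan) measured 36.51 to 46.31 FPKM against 20.73 to 42.20 FPKM, with 0.45 and an interval from -0.13 to 1.02. Both intervals included 0 and also differences above 1 on the log2 scale, so neither a difference nor its absence was shown. Prelp was apart by a narrow margin, with 13.26 FPKM in the lowest BBR mouse and 11.14 FPKM in the highest SASP mouse. Fmod (fibromodulin) lay at 0.07 to 0.63 FPKM, about 3.66 to 32.3 reads per mouse, and was not tested. Vcan (versican), a large hyaluronan-binding proteoglycan, had the smallest difference of all matrix genes tested, with 1.89, 2.09 and 2.39 FPKM in BBR mice and 1.46, 2.07 and 1.96 FPKM in SASP mice. Its log2 fold change was 0.15 with an interval from -0.21 to 0.50.

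Fibronectin and the matricellular glycoproteins had the highest summed level of the roles, 269 to 489 FPKM in BBR mice and 108 to 256 FPKM in SASP mice, with 8 genes tested, 5 with groups apart and none called by limma, although 6 had an unadjusted p of at most 0.05. Thbs2 (thrombospondin 2, NCBI Gene 21826), which restrains angiogenesis and matrix turnover, measured 2.33, 4.81 and 3.81 FPKM in BBR mice and 1.01, 1.97 and 1.60 FPKM in SASP mice. The groups were apart, with a log2 fold change of 0.86 ± 0.25 (SE; adjusted p = 0.0702 in limma). Sparc, a collagen-binding glycoprotein, spanned 82.90 to 122.21 FPKM in BBR mice and 34.87 to 72.94 FPKM in SASP mice. Postn (periostin), a fibroblast product of healing tissue, spanned 67.68 to 86.22 FPKM against 24.55 to 57.20 FPKM. Tnxb (tenascin X), which links collagen fibrils, spanned 5.30 to 11.03 FPKM against 1.62 to 4.24 FPKM. None of these overlapped between the groups.

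Fn1, Tnc and Thbs1 were dominated by BBR mouse 3. Fn1 (fibronectin), the integrin ligand of provisional matrix, measured 39.58, 42.16 and 135.75 FPKM in BBR mice and 14.82, 50.88 and 32.34 FPKM in SASP mice. SASP mouse 2 therefore lay above BBR mice 1 and 2, and the log2 fold change of 1.04 had a 95% confidence interval from -0.33 to 2.41. Thbs1 (thrombospondin 1), an activator of latent TGF-beta, measured 7.30, 13.31 and 30.16 FPKM in BBR mice against 5.79, 5.91 and 6.13 FPKM in SASP mice. The SASP mice were nearly level and the BBR mice widely spread, and the limma adjusted p was 0.121 for a log2 fold change of 1.16. Tnc (tenascin C), induced in wounds, measured 10.92, 17.32 and 25.50 FPKM against 5.31, 11.30 and 8.09 FPKM, with BBR mouse 1 just below SASP mouse 2. Sparcl1 (hevin), a relative of Sparc, was instead highest in BBR mouse 2 at 132.24 FPKM, and BBR mouse 1 at 52.54 FPKM was below SASP mouse 3 at 57.18 FPKM.

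Of the basement membrane genes, Hspg2 (perlecan, NCBI Gene 15530), the large heparan sulfate proteoglycan that also lines microfibrils, measured 5.58, 8.49 and 9.11 FPKM in BBR mice and 2.83, 4.84 and 4.42 FPKM in SASP mice. The groups were apart with a log2 fold change of 0.79 ± 0.23 (SE; adjusted p = 0.0718 in limma). Nid1 (nidogen 1), which joins laminin to collagen IV, spanned 8.20 to 12.76 FPKM in BBR mice and 5.13 to 8.17 FPKM in SASP mice, so that the nearest mice of the groups almost met. Nid2 did not pass the filter, at 0.88 to 1.88 FPKM against 0.37 to 1.02 FPKM, and overlapped.

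Some of these values may hold reads of another gene. In the GENCODE M21 annotation, Efemp2 shares 173 exonic bases with Mus81 on the opposite strand, Mfap4 shares 89 with Mapk7, Nid2 shares 437 with Rtraf and Aspn shares 7 with Cenpp. Fbn1 shares 2442 of its 12128 exonic bases with Gm9913. Whether counting used strand is not given in the sources used here, and without strand such reads cannot be told apart.

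The promoter windows at hand for these genes were not of 1 kind. RefSeq promoter windows (GRCm38.p6, the 250 bases before the transcription start, both strands searched) were at hand for 25 of the 37 genes, in 35 windows. Lum, Eln, Loxl1, Lox, Loxl2, Dcn, Fn1, Thbs1, Sparcl1, Mfap4, Mfap5 and Nid2 had no window in the table. The GC box letters GGGCGG were present in 19 of 35 windows (54.3%), against 32.7% of the 32851 RefSeq windows. They were found in 9 of 13 windows of elastic fibre genes, 4 of 7 of the latent TGF-beta binding genes and both basement membrane windows, but in 1 of 5 of the small leucine-rich proteoglycans. The letters TATAAA were present in 6 windows (17.1%, against 12.4% of all), of Aspn, Ogn, Postn, Thbs2 and Tnc, and in no window of an elastic fibre gene. The SMAD half-site letters CAGAC were present in 17 windows (48.6% against 42.2%), the AP-1 letters TGANTCA in 2 (5.71% against 6.75%), the TEAD letters GGAATG in 3 (8.57% against 12.6%) and a CArG box in none (against 1.47%). A match of letters is a description of the window and not a binding site. The following windows show the contrast, with TATAAA and GGGCGG matches on either strand in capitals. Those of Aspn (chr13:49544193-49544442, plus strand, 30.0% GC) and Ogn (chr13:49607765-49608014, plus strand, 42.0% GC) hold 2 TATAAA matches each, that of Fbln2 (chr6:91212514-91212763, plus strand, 58.8% GC) holds 1 GC box, and that of Hspg2 (chr4:137468553-137468802, plus strand, 70.0% GC) holds 5.
Aspn: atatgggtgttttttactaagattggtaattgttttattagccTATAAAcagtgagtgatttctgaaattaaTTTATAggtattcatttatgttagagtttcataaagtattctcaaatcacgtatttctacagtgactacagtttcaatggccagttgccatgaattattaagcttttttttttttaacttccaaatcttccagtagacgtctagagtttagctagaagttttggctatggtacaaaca
Ogn: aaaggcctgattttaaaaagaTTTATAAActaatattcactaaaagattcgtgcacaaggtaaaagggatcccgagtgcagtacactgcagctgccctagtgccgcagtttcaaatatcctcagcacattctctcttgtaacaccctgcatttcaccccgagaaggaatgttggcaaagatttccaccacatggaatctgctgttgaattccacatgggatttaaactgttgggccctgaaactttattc
Fbln2: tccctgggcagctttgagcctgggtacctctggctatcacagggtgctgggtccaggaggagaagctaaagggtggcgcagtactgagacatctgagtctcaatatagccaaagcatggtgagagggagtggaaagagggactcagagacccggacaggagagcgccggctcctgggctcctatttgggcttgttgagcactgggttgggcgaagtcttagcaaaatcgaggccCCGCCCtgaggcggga
Hspg2: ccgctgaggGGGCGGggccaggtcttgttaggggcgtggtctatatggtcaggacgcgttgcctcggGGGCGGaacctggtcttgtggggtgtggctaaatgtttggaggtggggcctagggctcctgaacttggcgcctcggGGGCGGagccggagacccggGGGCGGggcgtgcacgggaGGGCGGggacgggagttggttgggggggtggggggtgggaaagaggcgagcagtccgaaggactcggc
These 4 genes were taken from those given with full statistics. They had log2 fold changes of 1.02, 1.24, 0.69 and 0.79, each with groups apart. Among genes whose groups overlapped, Tnc held both TATAAA and a GC box, and Efemp1, Bgn, Ltbp2, Ltbp4 and Vcan held a GC box. The called genes had no window, and a link between window letters and fold change was not tested.

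Within the SASP group the matrix genes shared 1 low mouse. Their summed FPKM was 597, 908 and 835 in BBR mice 1 to 3 and 249, 526 and 474 in SASP mice 1 to 3. SASP mouse 1 was the lowest of the 6 mice for 32 of the 33 tested genes, the exception being Mfap5, and the lowest of its own group for all 33. Its values lay below the mean of SASP mice 2 and 3 by a median of -0.73 on the log2 scale, against -0.05 for all genes. Without SASP mouse 1 the median log2 fold change of the matrix genes was 0.59 in place of 0.82. BBR mouse 2 was the highest of the 6 mice for 21 genes and BBR mouse 3 for the other 12, and no SASP mouse was highest for any. How often each mouse was lowest or highest over all genes was not counted.

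BBR mouse 3 differed from its group gene by gene. Relative to the mean of BBR mice 1 and 2 it was higher for 19 matrix genes and lower for 14, with a median of 0.13 against -0.19 over all genes. On the log2 scale Fn1 was higher in this mouse by 1.71, Thbs1 by 1.52, Tnc by 0.84 and Mfap4 by 0.62. By contrast, Mfap5 fell short with -1.20, Ltbp4 with -1.14, Efemp1 with -0.60, Dcn with -0.57 and Tnxb with -0.51.

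**Figure D3:**
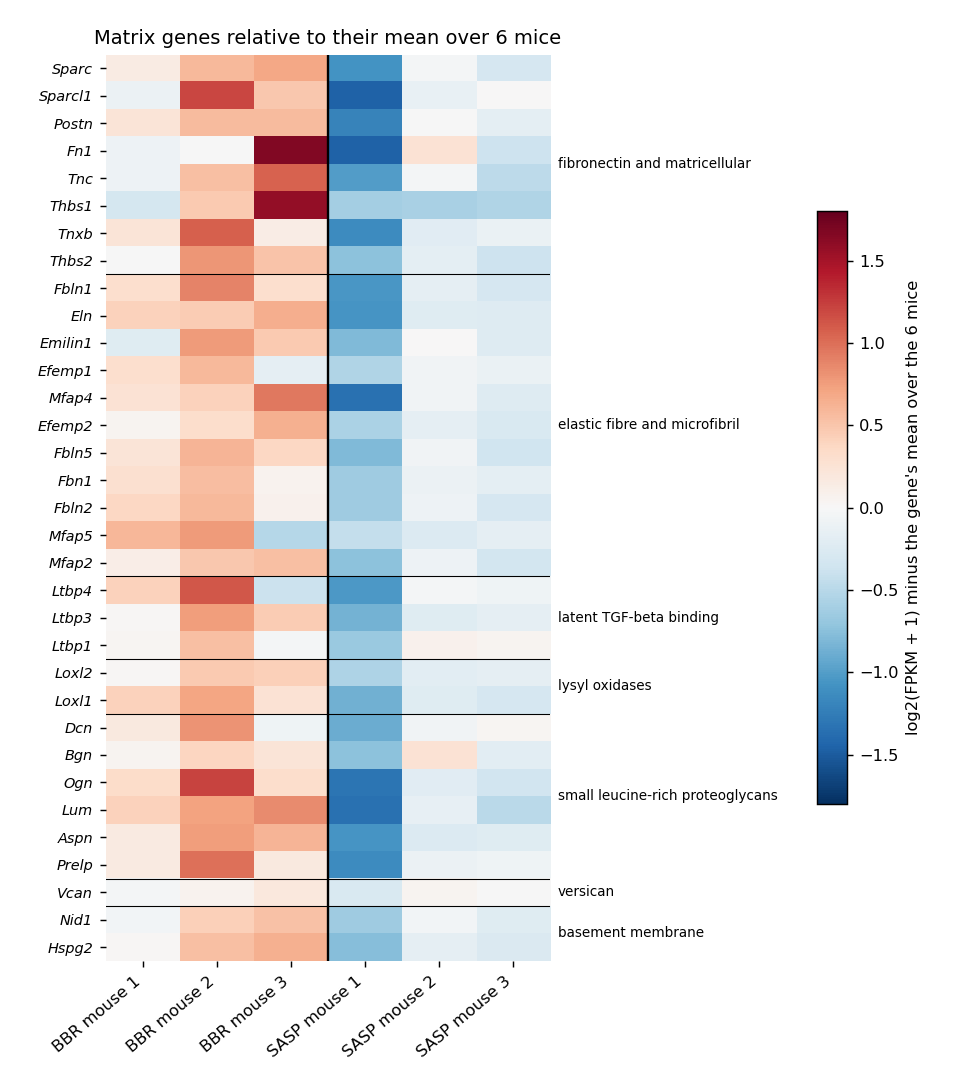
Log2(FPKM + 1) of the 33 tested matrix genes in each mouse minus the gene's mean over the 6 mice, by role (red, above the mean; blue, below). The column of SASP mouse 1 is the bluest in all but Mfap5, and the column of BBR mouse 3 is mixed, deep red for Fn1 and Thbs1 and blue for Mfap5 and Ltbp4.

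Markers of several cell types of the gut wall moved with the matrix genes. All 14 smooth muscle markers had a higher mean in BBR mice, none was called by limma (11 had an unadjusted p of at most 0.05), and their median log2 fold change was 1.19, beside 0.82 for the matrix genes. Their median relative to the 6-mouse mean was 0.07, 0.42 and 1.26 in BBR mice 1 to 3 and -1.49, -0.04 and -0.30 in SASP mice 1 to 3. SASP mouse 1 was thus lowest for these markers as well, while BBR mouse 3 rather than BBR mouse 2 was highest. Every smooth muscle marker was detected in every mouse, from 0.92 FPKM for Myocd to 1836.59 FPKM for Tagln. With the mean of these markers as a covariate in limma, the median log2 fold change of the matrix genes was 0.34, Fn1, Vcan and Bgn lay below 0, and no matrix gene was called or had an unadjusted p under 0.05. The score and the drug move together over only 6 mice, and over all genes 18 were called in that fit. By role the medians with the covariate were 0.44 for the elastic fibre genes, 0.47 for the lysyl oxidases, 0.39 for the small leucine-rich proteoglycans, 0.19 for fibronectin and the matricellular genes and 0.18 for the basement membrane genes.

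Fibroblast markers were less far apart, with 8 of 10 tested genes higher in BBR mice, a median log2 fold change of 0.51 and summed FPKM of 132 to 149 in BBR mice against 112 to 126 in SASP mice. Thy1 was called higher and C3, a complement gene that inflamed fibroblasts also express, lower. Endothelial markers (8 of 8 tested higher, Emcn called) had a median of 0.56 and summed FPKM of 32.2 to 54.8 against 17.5 to 26.1. Enteric neuron and glia markers (8 of 8 higher, none called by limma, 1 with an unadjusted p of at most 0.05) had a median of 0.53 and summed FPKM of 19.4 to 70.0 against 12.8 to 32.1. Of the mesothelial markers only Krt19, which epithelium also expresses, reached the filter, and Upk3b, Wt1 and Lrrn4 were listed at 0 in at least 1 mouse. The 10 epithelial markers had a median of 0.06 (8 higher, with Cdx2 and Krt18 called higher and Vil1 lower). They ranged widely around it, from -1.18 for Krt20 to 2.48 for Car1, neither of them called. The 7 leukocyte markers tested had a median of -0.50 (2 higher and 5 lower, with Cd14 called lower), with summed FPKM of 232 to 598 in BBR mice and 483 to 603 in SASP mice. Most of these sums came from Ly6g alone, at 190 to 552 FPKM in BBR mice and 329 to 505 FPKM in SASP mice. The part of these cell types in the matrix gene values was not tested. The fit with the smooth muscle covariate cannot measure it, because that score moves with the drug.

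**Figure D4:**
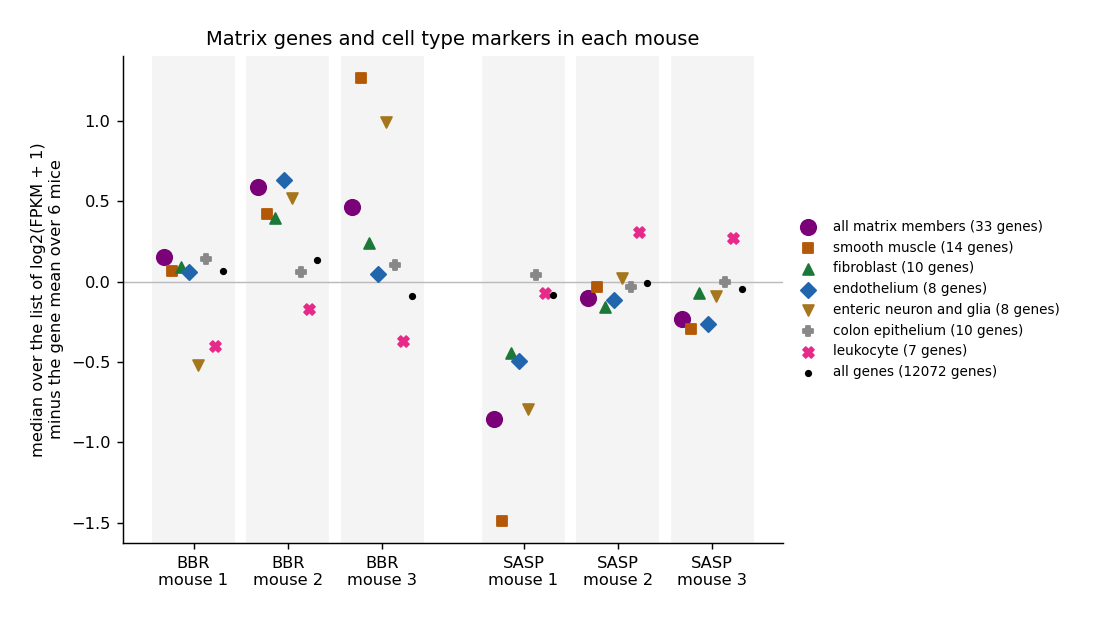
Median of log2(FPKM + 1) minus the 6-mouse gene mean in each mouse, for the 33 matrix genes, 6 lists of cell type markers and all 12072 genes tested. The matrix genes (purple circles) run from 0.58 in BBR mouse 2 to -0.86 in SASP mouse 1, the smooth muscle markers (orange squares) from 1.26 in BBR mouse 3 to -1.49 in SASP mouse 1, and all genes stay near 0.

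Other noncollagenous matrix genes were also mostly higher in BBR mice. Of 38 other matrix glycoprotein and proteoglycan genes tested (78 in the table), 34 were higher and 4 lower in BBR mice, 19 had groups apart, 4 were called higher and none lower, and the median log2 fold change was 0.62. Spon2 (spondin 2), a secreted matrix glycoprotein, measured 17.76, 24.61 and 21.54 FPKM in BBR mice and 5.41, 8.77 and 6.69 FPKM in SASP mice. It was higher in BBR mice with a log2 fold change of 1.50 ± 0.19 (SE; adjusted p = 0.0108 in limma), beside 1.32 for Lum, the largest of the 33 tested above. Mmrn1 (multimerin 1), a glycoprotein of platelets and endothelium, had a log2 fold change of 1.14 (limma adjusted p = 0.0354). It spanned 5.33 to 8.11 FPKM in BBR mice and 1.58 to 3.39 FPKM in SASP mice. Matn4 (matrilin 4) was called at 0.93 (limma adjusted p = 0.0205), but it passed the level filter only through the BBR mice, with 0.16 to 0.35 FPKM in SASP mice, and so had to differ. Cilp was the other called gene.

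Enzymes that build glycosaminoglycan chains on the proteoglycan core proteins differed less as a group. Of 28 tested, 25 were higher in BBR mice with a median log2 fold change of only 0.24, 2 were called higher and none lower. Ugdh, which makes the UDP-glucuronate that chains are built from, measured 275.58, 285.85 and 158.71 FPKM in BBR mice and 89.86, 107.34 and 102.53 FPKM in SASP mice (a log2 difference of 1.21, adjusted p = 0.0289 in limma). Papss1, which makes the sulfate donor, measured 68.76, 76.46 and 43.70 FPKM against 25.45, 29.34 and 22.50 FPKM (1.23, limma adjusted p = 0.0246). Both products are also used in detoxification, and for both genes BBR mouse 3 was the lowest of its group. Fam20b, a kinase of the chain linkage region, followed at 0.33 (limma adjusted p = 0.0657). Of the ADAMTS proteases that cleave proteoglycans, 5 were tested and 5 were higher, with a median of 0.52 and none called by limma (1 had an unadjusted p of at most 0.05). Adamts15 had 0.64 (adjusted p = 0.0529), Adamts8 had 0.52 (0.190) and Adamts9 had 0.34 (0.368). With array quality weights, which rest mainly on BBR mouse 1 and SASP mouse 3 and give BBR mouse 3 the least weight, their median was -0.01. With the smooth muscle covariate it was -0.13.

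**Figure D5:**
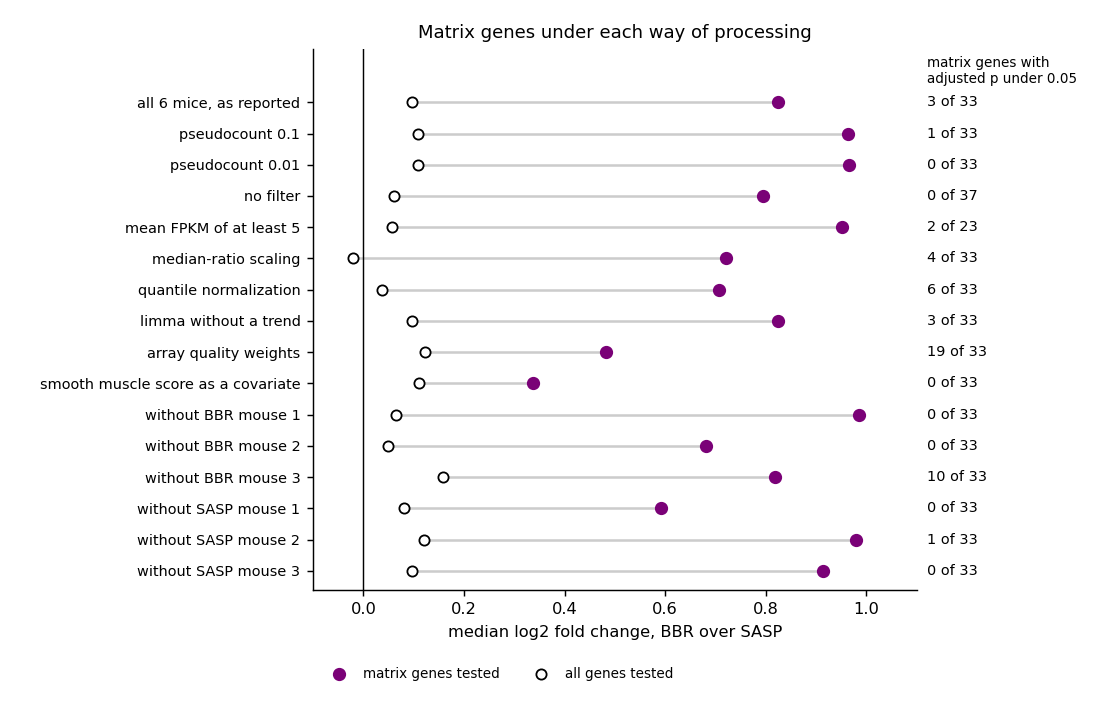
Median log2 fold change, BBR over SASP, of the matrix genes tested (filled) and of all genes tested (open) under each way of processing, with the number of matrix genes called at the right. The matrix gene median stays between 0.34 and 0.98, above that of all genes in each case, while the number called runs from 0 to 19.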

How the data were processed

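Total RNA of the mouse colorectum was sequenced in 6 libraries, 3 for each drug, grouped by the treatment label. The authors aligned reads with Bowtie2 2.2.5, estimated gene levels with RSEM 1.2.12, which divides reads shared by near-identical genes, and deposited them as FPKM with 2 decimals. The submitters' processing notes name mm9. The labels describe flash-frozen tissue and an Illumina TruSeq kit, whereas the study's methods describe rRNA depletion and BGISEQ-500 sequencing for related samples, so the preparation of these libraries is not settled. FPKM are scaled to the total of each library and hold no counts. Reads per library were estimated as a median over short genes that were above 0 in only 1 mouse, each assumed to hold 1 read. These estimates and the reads per gene built on them are approximate, cover counting error only, and were used for no test.

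With limma 3.58.1 in R 4.3.3 (mean-variance trend, two-sided, 3 against 3 mice, no covariate), log2(FPKM + 1) was compared for 12072 genes with at least 1 FPKM in at least 3 of the 6 mice, with Benjamini-Hochberg adjustment over all of them. The pseudocount shrinks the fold change of genes near 1 FPKM. A fold of means is the ratio of mean FPKM. The script was tested on simulated data. The members and gene lists were chosen with earlier results of these data known. Full statistics are given for called members and for those with the smallest limma p, up to 12. Other members are given by range and overlap, and the other gene lists by up to 3 genes with the smallest p. Genes named for BBR mouse 3, and the called cell type markers and Cilp, were chosen after their values were seen. Alternatives were other pseudocounts and filters, 2 other scalings, limma without a trend, array quality weights, a smooth muscle covariate, each mouse left out, and the unadjusted p of at most 0.05 used in the study.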

Additional observations from a re-analysis of the deposited data

How the results depend on the processing

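The direction of the matrix genes was more stable than their calls. Against 3 of 33 called and 1069 of all genes, the counts were 1 and 973 with a pseudocount of 0.1, 0 and 940 with 0.01 (23 matrix genes had an unadjusted limma p under 0.05), 0 of 37 and 608 with no filter (24), 2 of 23 and 801 at a mean FPKM of at least 5, 4 and 1683 with median-ratio scaling, 6 and 1737 with quantile normalization, 3 and 982 without a trend, 19 and 7126 with array quality weights, 0 and 18 with the smooth muscle covariate, and 23 and 3837 at an unadjusted p of at most 0.05. The counts at an unadjusted p for the pseudocount of 0.01 and for no filter have no share of all genes beside them, because it was not computed. Leaving out 1 mouse gave 0 to 10 matrix genes and 51 to 4018 of all genes. The cause was not tested. The median log2 fold change of 0.82 became 0.48 with array weights and 0.34 with the covariate, and 0.59 to 0.98 with 1 mouse left out. Median-ratio scaling moved the median of all genes by -0.12 and the share of calls that were higher from 43.1% to 29.6%, and the weights moved it to 65.1%. Relative to all genes the matrix median was 0.74 under that scaling and 0.73 as reported. Vcan lay below 0 with quantile normalization, Fn1, Vcan and Bgn did so with the covariate, and Ltbp2 was lower without a filter. Lum kept its call in 8 of 15 alternatives (limma adjusted p 0.00232 to 0.300), Eln in 6 of 15 (0.00347 to 0.348) and Loxl1 in 5 of 14 (0.00143 to 0.325), with no change of sign. For each of these genes the lowest value came from the fit with array quality weights. That fit rested mainly on BBR mouse 1 and SASP mouse 3, with weights of 5.32 and 4.85. The weights of the other mice were 0.129 to 0.746, and 59% of all genes were called. No paired analysis was possible because the labels give the 2 groups no shared replicate numbers. Lox, Fmod, Ltbp2 and Nid2 did not reach 1 FPKM in 3 mice and enter only the fit without a filter, and depth limits Fmod and Ltbp2, which had about 3.66 to 32.3 and 6.15 to 17.0 reads per mouse.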
